A study of Mus musculus with 12 samples.

Results

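Macrophages read signals from damaged tissue, microbes and metabolism through cell surface receptors, most of them coupled to G proteins. ATP and UTP released from stressed cells act on P2X channels and P2Y receptors. Adenosine, formed when ATP is broken down outside the cell, acts on A2A and A2B receptors, which raise cAMP and dampen inflammatory output. Formyl peptide receptors sense the formylated peptides of bacteria and mitochondria, GPR84 responds to medium-chain fatty acids, and the 5-HT2A receptor binds serotonin. The 10 receptor genes described here are Gpr84, Fpr1, Fpr2, P2rx4, P2rx7, P2ry2, P2ry6, Adora2a, Adora2b and Htr2a, taken by gene symbol out of 27296 genes tested. They were chosen by name with the fitted LPS changes and phenotype differences of these same arrays already known. Their values and calls are therefore a description, and no p-value is given for them.

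On 12 arrays, gene expression was measured in MH-S cells, a mouse line of alveolar macrophages. By phenotype, clones 7, 29 and 75 are labelled low, and clones 69, 73 and 83 high, in activity of IL-4Ra, the alpha chain of the IL-4 receptor. The sources used here do not say how that activity was measured. Every clone gave 1 unstimulated array and 1 array after 16 h with LPS of Salmonella Minnesota at 0.2 µg/ml, so each of the 4 groups holds 3 arrays, and no genotype or other agent is named for any group. All clones come from a single line, so the spread between them is that between sublines and not between animals. Levels are log2 values after RMA, the authors' array normalization, and a gene was called at an adjusted p under 0.05 in a limma fit of the 4 groups over all genes. Where a level is set against background, the comparison is with the 5331 intron control features of the same array, whose median lay between 4.50 and 4.82 and whose 95th percentile lay between 7.10 and 7.36.

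Of 11 macrophage markers measured, 6 lay above the 95th percentile of intron controls on all arrays, among them Csf1r, Cd68 and Lyz2. Itgam, Pparg and Marco, a scavenger receptor of alveolar macrophages, lay below it on every array. With LPS the macrophage markers Adgre1 (1.03 ± 0.15, adjusted p = 0.000355) and Fcgr1 (0.68 ± 0.15) rose, and Pparg (−1.33 ± 0.19, adjusted p = 0.000343) and Mertk (−0.95 ± 0.17) fell. Fcgr1 changed by 1.17 ± 0.21 in low clones and by 0.20 ± 0.21, not called, in high clones. Mertk passed the 95th percentile of intron controls on 4 arrays only, which with Pparg limits how far the size of both falls can be read. None of 10 lymphocyte markers and none of 7 neuron markers passed that level on any array, and the mean log2 level of the neuron list stayed between 4.13 and 4.44. Of 12 neutrophil and mast cell markers 11 stayed below it on every array (Mmp8 passed on 2), and of 12 fibroblast and epithelial markers 10 did, all but Col1a1 and Dcn. With LPS Dcn rose by 1.45 ± 0.39 (adjusted p = 0.0262) and the neuron marker Syn1 fell by 0.62 ± 0.16 (adjusted p = 0.0239). Dcn changed by 2.61 ± 0.55 in low clones and by 0.29 ± 0.55, not called, in high clones, and passed that level on 1 array. For neither Dcn nor Fcgr1 was the difference of the LPS responses called. In these whole-culture samples, fewer cells that express a gene and less RNA per cell cannot be told apart.

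Several of the genes are neighbours in the genome (mm10 throughout). Fpr1 (chromosome 17, 17876471 to 17883940, minus strand) and Fpr2 (17887824 to 17971677, plus strand) lie head to head, 3884 bases apart. P2rx7 (chromosome 5, 122643911 to 122691432) and P2rx4 (122707557 to 122729738) follow each other on the plus strand with 16125 bases between them. P2ry6 (chromosome 7, 100937634 to 100964391) and P2ry2 (100996572 to 101011991) share the minus strand, 32181 bases apart. Gpr84 lies on chromosome 15 (103308235 to 103310438, minus strand), Htr2a on chromosome 14 (74640840 to 74706859), Adora2a on chromosome 10 (75316943 to 75334788) and Adora2b on chromosome 11 (62248984 to 62266453), the last 3 on the plus strand. Each gene is read by 1 feature of the main category, with 9 probes for Fpr2 and 18 to 36 for the others, and none is marked in the annotation as prone to bind other transcripts. Fpr2 belongs to a family of closely similar copies in mouse, so its value carries that uncertainty.

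The promoters of the pair with the largest LPS changes, Gpr84 and Fpr2, are shown because both genes were higher with LPS in all 6 clones. They are the RefSeq windows of 300 bases (250 before the start and 50 after it, build GRCm38.p6), chr15:103310389-103310688 on the minus strand and chr17:17887574-17887873 on the plus strand. Capitals mark matches to any of 5 searched motifs, on both strands.
Gpr84: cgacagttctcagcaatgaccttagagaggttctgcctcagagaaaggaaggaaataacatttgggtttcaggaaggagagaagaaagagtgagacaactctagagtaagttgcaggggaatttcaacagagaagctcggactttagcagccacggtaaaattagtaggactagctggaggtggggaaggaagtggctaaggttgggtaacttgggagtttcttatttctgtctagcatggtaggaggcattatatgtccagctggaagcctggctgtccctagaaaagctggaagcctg
Fpr2: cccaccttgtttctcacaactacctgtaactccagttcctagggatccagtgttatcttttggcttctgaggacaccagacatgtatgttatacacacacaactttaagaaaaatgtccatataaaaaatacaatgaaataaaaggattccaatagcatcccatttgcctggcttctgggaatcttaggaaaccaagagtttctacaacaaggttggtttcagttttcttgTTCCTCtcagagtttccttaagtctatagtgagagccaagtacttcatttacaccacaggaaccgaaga
The motifs were the NF-kB consensus, the ISRE core, the AP-1 site TGANTCA, the CRE TGACGTCA and the ETS or PU.1 core GAGGAA. The only match in either window is the reverse complement of the last, 19 bases before the start of Fpr2, so no matches overlap. Of all 27025 genes with a promoter window (the first one listed for each), 28.3% hold that core, 8.18% the NF-kB consensus, 7.93% the AP-1 site, 3.49% the ISRE core and 1.88% the CRE. Among the 8 receptor genes with a promoter window, the core was also found in those of P2rx7 and Htr2a, and an AP-1 site in that of P2rx7.

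LPS raised 7 of the 10 genes over all clones and lowered 1, beside 5.72% and 6.72% of all genes. Because the genes were chosen knowing this contrast, nothing is read from that count. Gpr84 rose most, by 3.14 ± 0.15 on the log2 scale (8.78-fold, SE of the fit), followed by Fpr2 (2.55 ± 0.33), Fpr1 (1.28 ± 0.19) and Adora2b (1.13 ± 0.16). The median change of the 10 genes was 0.47, and that of all genes −0.01. For Gpr84, Fpr1, Fpr2 and Adora2b all 6 LPS arrays lay above all 6 unstimulated arrays, which held for 3.02% of all genes. The reverse order held for 3.44% of all genes and for 0 of the 10. The authors' deposited table gives folds of 7.75 for Gpr84, 6.76 for Fpr2, 2.78 for Fpr1 and 2.25 for Adora2b. Those use values without log transformation, so they are not the same measure as the fitted changes. Their q-values from Student's test were under 0.05 for Gpr84 and Adora2b, but not for Fpr2 and Fpr1.

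**Figure D1:**
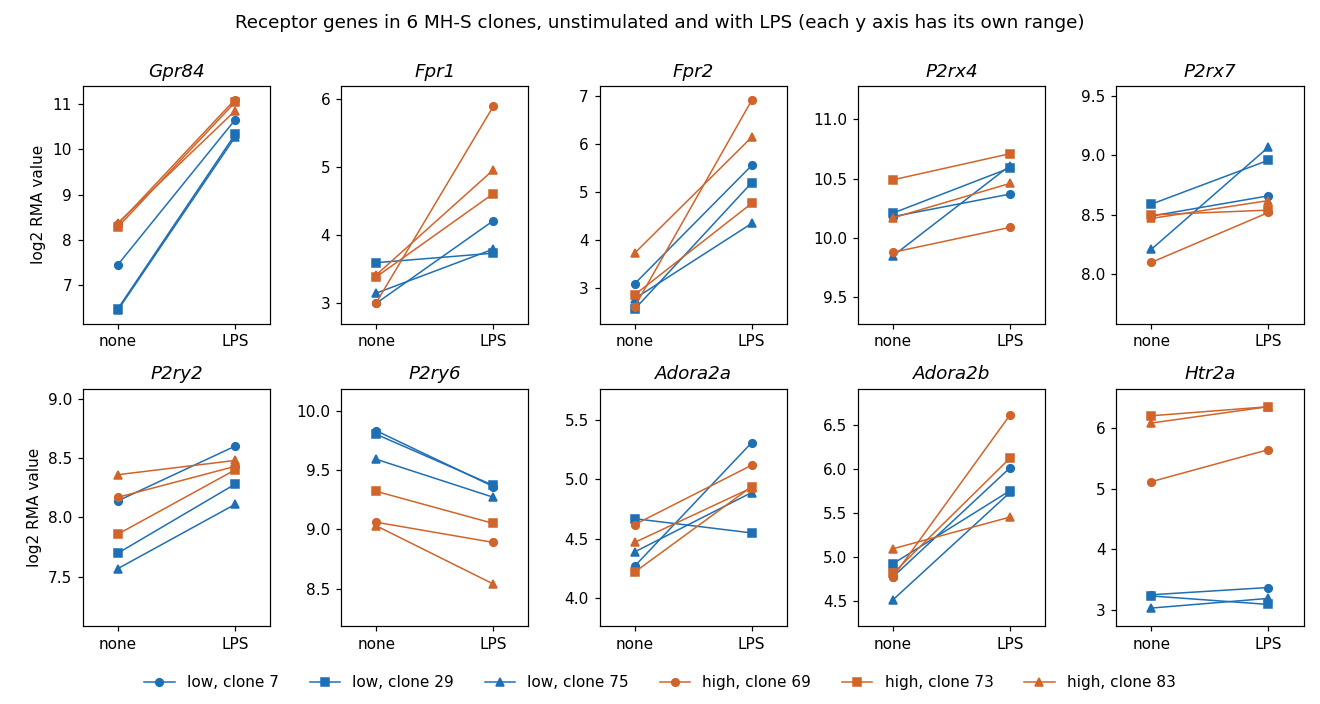
Log2 RMA value of the 10 receptor genes on each array, with 1 line per clone from its unstimulated to its LPS array (blue low, orange high IL-4Ra activity; each panel has its own y range). All 6 lines of Gpr84 climb steeply, all 6 of P2ry6 descend, and the 3 orange lines of Htr2a stand far above the 3 blue ones in both conditions.

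Gpr84 encodes a Gi-coupled receptor for medium-chain fatty acids that is known as an inflammatory marker of macrophages. Unstimulated, its log2 level was 7.46, 6.49 and 6.46 in the low clones 7, 29 and 75 and reached 8.35, 8.29 and 8.38 in the high clones 69, 73 and 83. With LPS it was 10.65, 10.33 and 10.27 in the low clones and 11.10, 11.04 and 10.85 in the high clones. High clones were therefore above low clones in both conditions with no overlap, and clone 7 stood apart from the other low clones at rest. Unstimulated clones 29 and 75 lay below the 95th percentile of intron controls, so the folds and differences of Gpr84 that use the low clones at rest are measured in part against background. The genes whose profile over the 12 arrays came closest to that of Gpr84 were the chemokine receptor-like gene Ccrl2, Hcar2, which encodes the receptor for beta-hydroxybutyrate and niacin, and the chemokine Cxcl10. Their root mean square differences from the centred profile of Gpr84 were 0.37, 0.41 and 0.47 on the log2 scale.

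The formyl peptide receptor genes were low without stimulation and higher with LPS. Fpr2, whose receptor also binds serum amyloid A and annexin A1, stood unstimulated at 3.08, 2.55 and 2.77 in the low clones 7, 29 and 75, and at 2.60, 2.85 and 3.72 in the high clones 69, 73 and 83. With LPS it reached 5.55, 5.19 and 4.34 in the low clones and 6.91, 4.76 and 6.14 in the high clones. Unstimulated values lay at percentiles 5.70 to 27.0 of the intron controls and LPS values at percentiles 45.7 to 92.9, so the fitted 5.87-fold change starts from a level within the background. Fpr1, the receptor gene for short formylated peptides, went from 2.99, 3.59 and 3.14 to 4.21, 3.73 and 3.79 in the low clones. In the high clones it went from 3.00, 3.38 and 3.41 to 5.90, 4.61 and 4.96. Clone 69 had the highest LPS level of both genes, and the lowest LPS change of Fpr1 was that of clone 29 (0.14).

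Both FPR genes are best known from neutrophils, so the neutrophil and mast cell markers are given beside them. The mean log2 level of those 12 markers lay between 3.73 and 4.01 on unstimulated arrays and between 3.89 and 4.26 on LPS arrays. Of the 12, 2 were called higher with LPS, S100a8 (1.00 ± 0.16, adjusted p = 0.000808) and Ly6g (0.40 ± 0.12, adjusted p = 0.0399), and 0 lower. Elane, Mpo and Ltf were among those not called, with mean levels of 3.31 to 3.97 in every group, below the median of intron controls. Mmp8, the one marker of the list near the upper background limit, had mean levels of 5.60 and 6.36 unstimulated and 6.77 and 7.26 with LPS in low and high clones. Its change of 1.03 ± 0.53 was not called (adjusted p = 0.262), but was with the clone as a block (adjusted p = 0.000895). Most neutrophil markers, S100a8 and Ly6g included, lay within the background on all arrays. S100a8 was also the gene closest in profile to Fpr1 (root mean square difference 0.35), ahead of Il12b (0.36) and Urah (0.36). Whether a change in cell make-up had a part in the FPR result was not tested. Closest to Fpr2 were the paired receptor genes Pilrb1 (0.47) and Pilrb2 (0.48) and the zinc transporter Slc39a4 (0.54).

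Among the receptors for nucleotides, changes with LPS were small and of both signs. P2ry6, the Gq-coupled receptor gene for UDP, fell by 0.36 ± 0.10 on the log2 scale over all clones. It stood at 9.83, 9.80 and 9.59 in unstimulated low clones and at 9.36, 9.37 and 9.27 with LPS, and at 9.06, 9.32 and 9.03 and then 8.89, 9.05 and 8.54 in the high clones 69, 73 and 83. P2ry2, its neighbour, which encodes a Gq-coupled receptor for ATP and UTP, rose by 0.42 ± 0.12. Its levels went from 8.14, 7.70 and 7.57 to 8.60, 8.28 and 8.11 in the low clones and from 8.17, 7.86 and 8.36 to 8.43, 8.40 and 8.48 in the high clones. The 2 adjacent genes thus moved in opposite directions within each of the 6 clones.

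P2rx7 encodes the ATP-gated channel that triggers the NLRP3 inflammasome, and P2rx4 a related channel found largely on endolysosomes. P2rx7 rose by 0.34 ± 0.10 over all clones, from 8.49, 8.59 and 8.21 to 8.66, 8.96 and 9.07 in the low clones and from 8.10, 8.50 and 8.47 to 8.52, 8.54 and 8.62 in the high clones. P2rx4 differed by about as much, 0.34 ± 0.13, without being called. It went from 10.18, 10.21 and 9.85 to 10.37, 10.59 and 10.61 in the low clones and from 9.88, 10.49 and 10.17 to 10.09, 10.71 and 10.46 in the high clones. Both genes were higher with LPS in 6 of 6 clones, and clone 75 had the largest change of each (0.86 and 0.76). With the clone as a block the calls changed places: P2rx4 was called higher and P2rx7 was not.

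In the fit of 4 groups, which leaves out the pairing by clone, the calls of the nucleotide receptors depended on single arrays. With the clone as a block, P2ry2 was still called higher and P2ry6 lower over all clones. P2ry2 was higher with LPS in 6 of 6 clones and P2ry6 in 0 of 6. The losses below are those of the fit without the block. That of P2rx7 was lost in 9 of 12 fits that left out 1 array, and held only without clone 29 unstimulated, clone 73 unstimulated or clone 7 with LPS. That of P2ry2 was lost in 9 of 12 as well, and held only without clone 7 unstimulated, clone 83 unstimulated or clone 75 with LPS. That of P2ry6 was lost in 5 of 12, namely without unstimulated clone 7, 29 or 73 and without LPS-treated clone 75 or 83.

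The adenosine receptor genes, whose receptors couple to Gs, were low at rest and higher with LPS. Adora2b stood at 4.77, 4.92 and 4.51 in unstimulated low clones and at 6.01, 5.75 and 5.73 with LPS. In the high clones 69, 73 and 83 it stood at 4.77, 4.81 and 5.09 and then at 6.61, 6.12 and 5.45. Clone 83 had the smallest change (0.36) and clone 69 the largest (1.84). Adora2a rose by 0.52 ± 0.13 and was higher with LPS in 5 of 6 clones. Its levels were 4.27, 4.67 and 4.39 and then 5.31, 4.55 and 4.89 in the low clones, and 4.62, 4.22 and 4.47 and then 5.12, 4.94 and 4.93 in the high clones. Clone 29 was the exception, with a difference of −0.12. The call of Adora2a was lost without both arrays of clone 7, 73 or 75. All levels of both genes lay below the 95th percentile of intron controls. The profile closest to that of Adora2b was that of Slc6a4, the serotonin transporter gene (root mean square difference 0.21), followed by Zfp420 (0.22) and the kinase gene Pim2 (0.23).

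**Figure D2:**
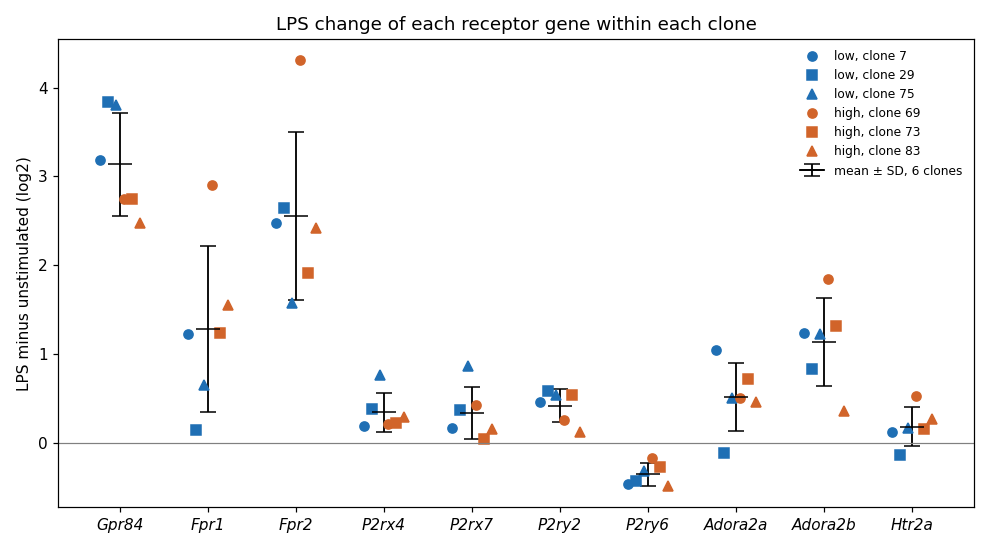
LPS minus unstimulated log2 value within each of the 6 clones for each gene (blue low, orange high IL-4Ra activity), with the mean and SD over 6 clones in black. Gpr84 lies between 2.47 and 3.84 in every clone and P2ry6 between −0.49 and −0.17, whereas Fpr1 spreads from 0.14 to 2.90.

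Within the low clones taken alone, Gpr84 (3.61 ± 0.22), Fpr2 (2.23 ± 0.46) and Adora2b (1.10 ± 0.23) were called higher with LPS, 3 of 10 genes beside 3.59% of all genes higher and 7.73% in either direction. With the clone as a block P2rx4 (0.44 ± 0.12) and P2ry2 (0.53 ± 0.10) were called higher too and P2ry6 (−0.41 ± 0.10) lower. The call of Fpr2 was lost without both arrays of clone 7 or 29, and that of Adora2b without both arrays of clone 7 or 75. Within the high clones, Fpr2 (2.88 ± 0.46), Gpr84 (2.66 ± 0.22), Fpr1 (1.89 ± 0.27) and Adora2b (1.17 ± 0.23) were called higher, 4 of 10 beside 1.82% of all genes higher and 3.88% in either direction. In high clones the LPS arrays lay above the unstimulated ones without overlap for 7 of the 10 genes, beside 9.18% of all, and in low clones for 6, beside 11.8%. Without both arrays of clone 69 or 73 Adora2b was not called there, nor in a fit of the 6 arrays alone.

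Fpr1 was thus called in high clones and not in low clones, where its change was 0.67 ± 0.27. The difference of the LPS responses itself (high minus low clones) was 1.22 ± 0.39 for Fpr1, with a 95% interval of 0.38 to 2.06. For Gpr84 it was −0.96 ± 0.30 (interval −1.61 to −0.30), with gains of 3.19, 3.84 and 3.81 in the low clones 7, 29 and 75 and of 2.75, 2.75 and 2.47 in the high clones 69, 73 and 83. Neither difference passed in the limma fit over all genes. In that comparison 0 of the 10 genes were called, beside 0.011% of all genes. For the other 8 genes the difference lay between −0.26 and 0.65, with intervals that hold 0. All these intervals are per gene, without adjustment over all genes, and the genes were chosen with results of these arrays known. Nothing is therefore read from which intervals hold 0.

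Htr2a divided the clones by phenotype and not by LPS. The gene encodes the Gq-coupled 5-HT2A serotonin receptor, the main excitatory serotonin receptor of the cortex and a receptor of platelets. In the low clones 7, 29 and 75 its log2 level was 3.25, 3.23 and 3.03 unstimulated and 3.37, 3.09 and 3.19 with LPS. In clones 69, 73 and 83 it was 5.12, 6.21 and 6.09 without and 5.65, 6.36 and 6.36 with LPS. High minus low clones differed by 2.64 ± 0.25 unstimulated (6.22-fold) and by 2.91 ± 0.25 with LPS (7.50-fold), the third largest difference in size among all genes in both conditions. Low clones lay at percentiles 12.2 to 21.3 of the intron controls and high clones at percentiles 64.7 to 84.7, so the fold is measured against a level within background. LPS changed Htr2a by 0.18 ± 0.18, which was not called (95% interval −0.21 to 0.57).

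In all, 2 of 10 genes, Gpr84 and Htr2a, were called higher in unstimulated high clones, beside 0.920% of all genes, and 2 of 10, Fpr1 and Htr2a, with LPS, beside 0.982%. The difference of Gpr84 was 1.54 ± 0.22 unstimulated and 0.58 ± 0.22 with LPS, where it was not called. The unstimulated call of Gpr84 was lost without both arrays of clone 29 and in a fit of the 6 unstimulated arrays alone. The high clones lay above the low clones without overlap for Gpr84 and Htr2a unstimulated, beside 7.97% of all genes, and for Gpr84, Fpr1 and Htr2a with LPS, beside 7.55%. Fpr1 differed by 1.25 ± 0.27 with LPS and by 0.02 ± 0.27 without. Its call with LPS was lost with the clone as a block and in 11 of 12 fits that left out 1 array, the exception being the LPS array of clone 73.

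P2ry6 was lower in high clones by 0.60 ± 0.14 unstimulated and by 0.51 ± 0.14 with LPS, with no overlap between phenotypes in either condition, and was called in neither. With the clone as a block it was called lower unstimulated. Groups that do not overlap in this direction were seen for 7.68% of all genes unstimulated and 7.70% with LPS, where P2rx7 was the other gene among the 10 (−0.34 ± 0.14, not called). For P2rx4, P2rx7, P2ry2, Adora2a, Adora2b and Fpr2 the differences between phenotypes lay between −0.34 and 0.91, and none was called in either condition. The interval for Fpr2 with LPS, −0.09 to 1.91, includes 0.

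**Figure D3:**
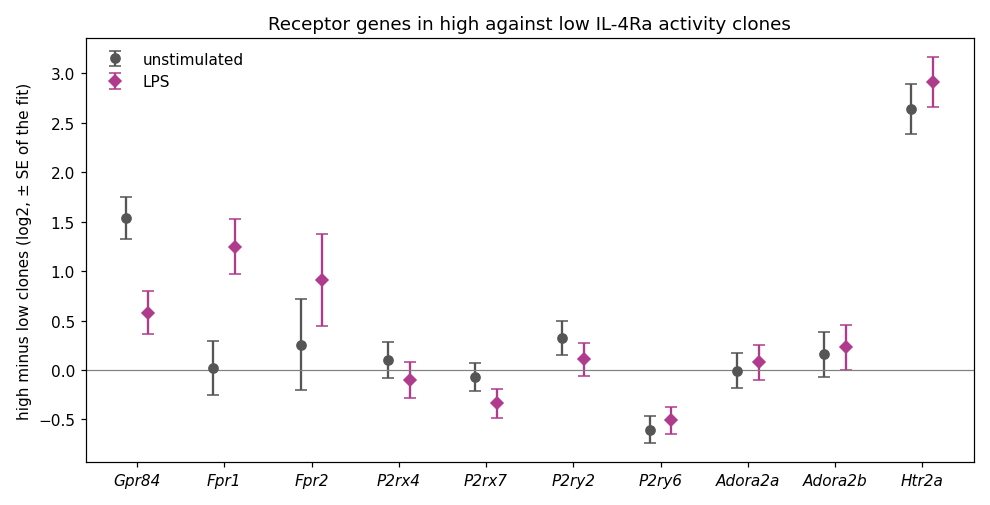
High minus low IL-4Ra activity clones for each gene on the log2 scale, unstimulated (grey circles) and with LPS (purple diamonds), with the SE of the fit. Htr2a stands at 2.64 and 2.91, Gpr84 falls from 1.54 to 0.58, and P2ry6 lies below 0 in both conditions.

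Genes near Gpr84 differed between the phenotypes as well. Of 44 other genes tested within 1 Mb on each side on chromosome 15, 15 were called higher in unstimulated high clones and 17 with LPS, beside 0.920% and 0.982% of all genes. The median difference over the 44 was 0.46 and 0.26. Both flanking coding genes were among them, Copz1, a coat protein of transport vesicles (0.80 unstimulated), and the zinc finger gene Zfp385a (0.99). Unstimulated, differences of the 15 called lay between 0.50 and 1.03, below the 1.54 of Gpr84. With LPS those of the 17 called lay between 0.44 and 1.01. That range holds the 0.58 of Gpr84, which was not called. Measured against the mean of the low clones, the median of the 44 genes was 0.41, 0.49 and 0.51 in unstimulated clones 69, 73 and 83 and 0.36, 0.33 and 0.37 with LPS, while the low clones lay between −0.04 and 0.03. Gpr84 itself stood 1.55, 1.49 and 1.58 above that mean unstimulated and 0.68, 0.62 and 0.43 with LPS. With LPS 1 of the 44 rose and 2 fell over all clones. The part of the chromosome 15 segment in the level of Gpr84 was not tested.

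Around Htr2a, 16 other genes were tested within 1 Mb. Of these 1 was called higher in unstimulated high clones (Cog3, 0.67), beside 0.920% of all genes. With LPS 2 were called higher (Cog3, 0.64, and Zc3h13, 0.67), beside 0.982%. The median difference over the 16 was 0.16 and 0.17. The nearest coding gene, Esd, 25486 bases away, differed by 0.61 unstimulated without being called. On the other side the nearest, Sucla2, lies outside that window, 1044698 bases away, and was called higher in unstimulated high clones (0.42, and 0.59 with LPS). The part of the chromosome 14 segment in the level of Htr2a was not tested. The profiles closest to that of Htr2a belonged to genes of other chromosomes, the histone genes H2bc8 (0.66) and H2bc4 (0.67) and the zinc finger gene Zfp873 (0.75). This measure keeps the size of differences, so the neighbours, which differed far less than Htr2a, could not come as close. Nothing about the segment is read from it.

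**Figure D4:**
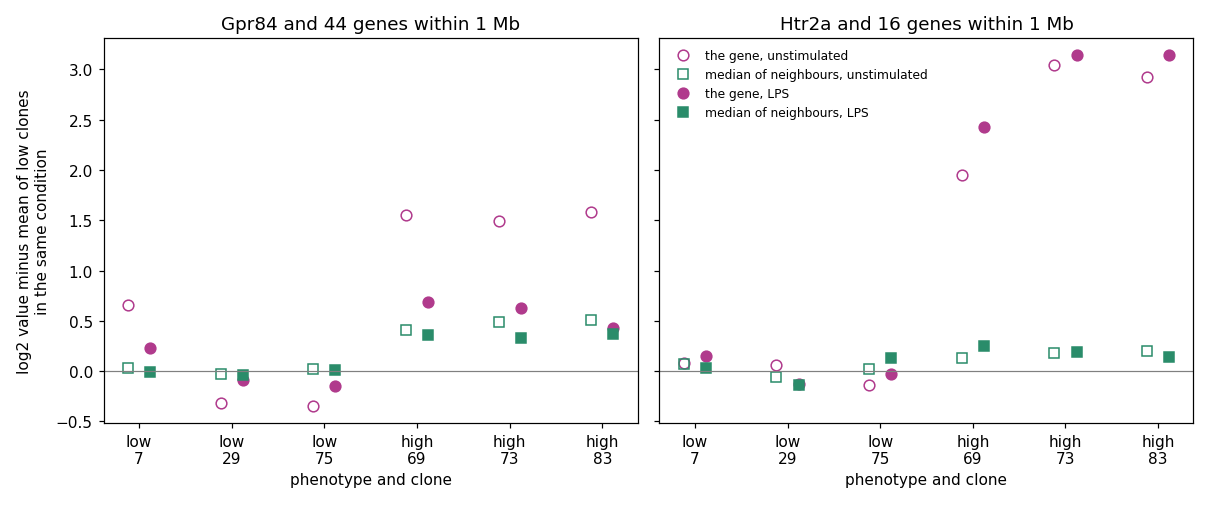
Log2 value of Gpr84 (left) and Htr2a (right) and the median over their neighbours within 1 Mb, in each clone, minus the mean of the low clones in the same condition (open unstimulated, filled LPS). The median over the 44 neighbours of Gpr84 lies 0.33 to 0.51 above the low clones in every high clone, and that over the 16 of Htr2a 0.14 to 0.25. Htr2a itself lies 1.95 to 3.14 above them.

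The rest of the receptor systems was taken from 8 lists of 130 measured genes. With LPS 16 of them rose and 18 fell over all clones, 26.2% together beside 12.4% of all genes called in either direction, and their median change was −0.01. These lists were also chosen with earlier results of these data known, so nothing is read from that share. The adjusted p-values given for list genes are likewise a description. None of the 13 other P2X, P2Y and adenosine receptor genes was called in the limma fit, and 0 had an unadjusted p under 0.05. All 13 lay below the 95th percentile of intron controls on all 12 arrays, which limits what can be read from a lack of change. Of 20 genes of nucleotide and adenosine handling 3 rose and 2 fell. Pnp, a purine nucleoside phosphorylase (0.74 ± 0.15, adjusted p = 0.00611), and the nucleoside transporters Slc28a2 (0.53 ± 0.10) and Slc29a1 (0.50 ± 0.12) rose, and Ada, which degrades adenosine, fell by 0.49 ± 0.11 (adjusted p = 0.00910). The ectoenzymes Entpd1 (−0.08) and Nt5e (−0.12), which turn ATP into adenosine, were not called. Entpd1 lay above the 95th percentile of intron controls on every array and Nt5e below it on every array.

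Of 8 genes listed with the inflammasome that P2X7 feeds, not all of them parts of it, 5 rose. In front were Il1b (7.03 ± 0.20), the sensor Nlrp3 (1.49 ± 0.13, adjusted p = 7.62e-06), Casp4 (1.25 ± 0.08) and Il18 (0.47 ± 0.13). Among ligands of the formyl peptide receptors, Saa3, a serum amyloid A (4.49 ± 0.24, adjusted p = 1.04e-07), and the cathelicidin Camp (0.89 ± 0.14) rose, and Hebp1 (−0.66 ± 0.14) and annexin A1, Anxa1 (−0.59 ± 0.11, adjusted p = 0.00319), fell. The other 5 formyl peptide receptor genes lay between −0.02 and 0.22; 0 were called and 1 had an unadjusted p under 0.05. Saa3 was also the only one of the 130 called between unstimulated phenotypes, higher by 2.1 ± 0.34 in high clones (adjusted p = 0.0107). With LPS the only one was the adenosine kinase gene Adk (0.58 ± 0.11, adjusted p = 0.0280). Those are 0.769% of the list genes each, beside 1.14% and 1.32% of all genes called in either direction.

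Of 18 other metabolite and proton-sensing receptors 2 rose and 1 fell. Among the 18, only Hcar2, Gpr65 and Gpr132 passed the 95th percentile of intron controls on any array. Hcar2 rose by 3.16 ± 0.18 (adjusted p = 2.09e-07), about as much as Gpr84, and Gpr31b by 0.79 ± 0.12, while the oxysterol receptor gene Gpr183 fell by 1.41 ± 0.26 (adjusted p = 0.00285). Of 20 genes of serotonin receptors and serotonin handling 1 rose, Slc6a4 (0.96 ± 0.10, adjusted p = 4.77e-05). The 13 other serotonin receptor genes differed by −0.17 to 0.12 with LPS and by −0.20 to 0.36 between unstimulated phenotypes, against 2.64 for Htr2a. All 13, like Htr2a, lay below the 95th percentile of intron controls on all 12 arrays.

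Downstream of the receptors, 2 of 20 G protein and effector genes rose and 6 fell. Gna12, a G protein alpha subunit (−0.72 ± 0.09), and the adenylate cyclases Adcy7 (−0.66 ± 0.08, adjusted p = 0.000172) and Adcy9 (−0.58 ± 0.10), which make cAMP, fell. Pik3r6, a regulatory subunit of the PI3-kinase that G proteins activate, rose by 0.68 ± 0.12. Of 21 genes of receptor desensitisation and feedback 1 rose and 7 fell. The phosphodiesterase gene Pde4b, which breaks down cAMP, rose by 0.91 ± 0.09 (adjusted p = 2.21e-05), and the G protein regulators Rgs2 (−1.43 ± 0.24) and Rgs10 (−0.73 ± 0.09) and the beta-arrestin gene Arrb1 (−0.79 ± 0.07, adjusted p = 1.66e-05) fell. Some of the called genes named from these receptor system lists lay below the 95th percentile of intron controls on all 12 arrays. They are Pnp, Slc28a2, Camp, Hebp1, Gpr31b, Gpr183, Slc6a4 and Pde4b, which limits how far the size of their changes can be read. Il1b, Hcar2 and Nlrp3 passed that percentile on 6 of 12 arrays and Il18 on 1. In unstimulated low and high clones Il1b had mean levels of 4.46 and 5.29, and Hcar2 of 4.88 and 5.48. Nlrp3 had 6.91 and 6.96. The changes of Il1b, Hcar2 and Nlrp3 therefore start from levels within the background.

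**Figure D5:**
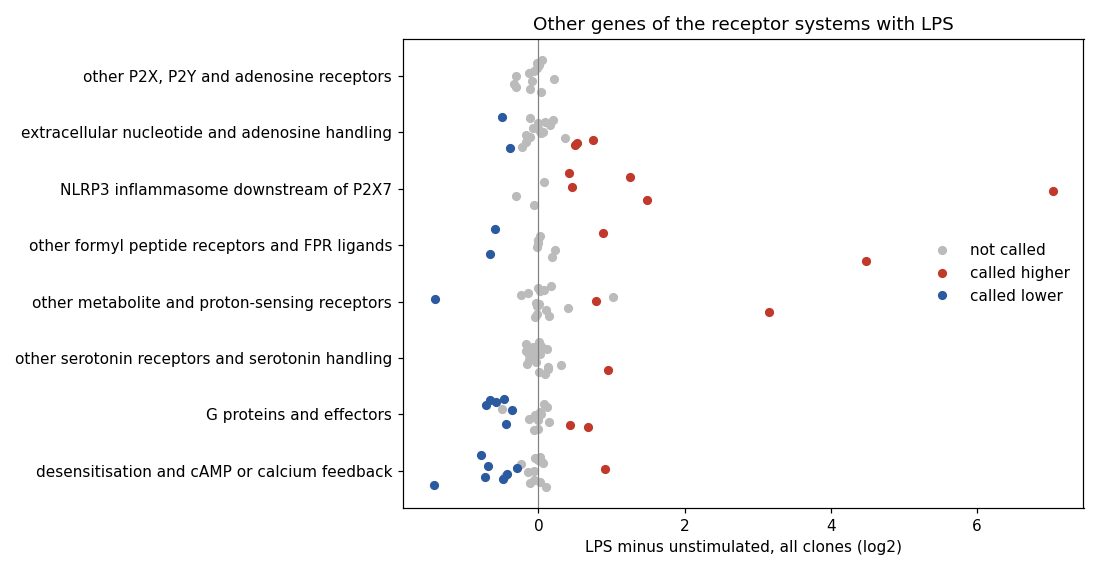
LPS change over all clones (log2) of the 130 other genes of the receptor systems, 1 point per gene and 1 row per list (red called higher, blue called lower, grey not called). None of the 13 other purine receptors in the top row is called, and all 13 lie below the upper background limit. Il1b at 7.03 and Saa3 at 4.49 lie farthest right, and the bottom rows lean to the left with 6 and 7 genes called lower.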

How the data were processed

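The authors made the deposited log2 values from Affymetrix Mouse Gene 2.1 ST arrays with Expression Console by RMA (background correction, quantile normalization, median polish), per the file headers; annotation was NetAffx build 34 on mm10. The authors' deposited table also holds a fold score, p-values and q-values from Student's test, unpaired and run on values without log transformation, per the file headers. The number of arrays limits the precision.

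Of 33793 main features, 29294 carry a symbol; the feature with the highest mean stood for a gene, which left 27296. Identifiers of 23521 matched RefSeq genes (GRCm38.p6), used for names and promoters; 8 of the 10 receptor genes had a promoter window. Fits used limma 3.58.1 in R 4.3.3 with statmod 1.5.0, 4 group means over 12 arrays, two-sided, Benjamini-Hochberg over all genes, and were tested on simulated data. Errors are standard errors.

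The receptor genes and lists were chosen with earlier results of these data known. From each list, at most 4 called genes with the largest LPS change, and at most 2 per phenotype comparison, were named. Profiles were compared for genes with an SD of at least 0.5, naming 3 each. Neighbourhoods were chosen after their values were seen.

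The clone numbers in the labels pair the arrays, and the paired arrays' deviations from group means correlated at 0.10 to 0.42. Columns of per-sample values left unused numbered 0. Replicates are clones of a single line. Protein sequences were not used here.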

Additional observations from a re-analysis of the deposited data

Results flagged for a closer look

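The LPS change of P2rx4 in clone 75 (0.76) stood apart from those of the other 5 clones, which lay between 0.19 and 0.38; its gap to the nearest, relative to the range, passed Dixon's 95% value for 6 values. Chance flags about 1 in 20 such groups, and 10 genes were examined. A second feature for Adora2b, in the rescue category and outside the gene tests, was also higher with LPS, by 0.397 ± 0.365 (SD, 6 clones), with a higher value in 5 of 6 clones. Clone 83 was the exception there (−0.32), and it also had the smallest change of the main feature.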

How the results depend on the processing

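Every called change of a receptor gene kept its direction under every alternative run, and of 1460 recomputed changes 17 moved by more than the spread between clones. Many of the 1460 could not move. The clone block, trend and robust, and the fold limit alter only the error or the call, and leave the change as it was. So do fits without an array outside the comparison. The 17 of 1460 is therefore no measure of robustness. Counts here are receptor genes called. With the clone as a replicate block, LPS gave 5 higher and 1 lower in low clones, and between phenotypes 1 was lower unstimulated and 1 higher with LPS. It left the counts over all clones (7 and 1) and in high clones (4 and 0) as they were. Leaving out genes near background kept 5 of the 10 genes and gave 3 higher over all clones, 1 higher in high clones, 1 lower in low clones, 1 higher and 1 lower between unstimulated phenotypes, and 0 higher and 1 lower with LPS. A log2 change of at least 1 left 4 higher and 0 lower over all clones, and the authors' kind of unpaired test, adjusted over all genes, left 3 and 0. Fitting only the arrays compared gave 1 higher between phenotypes in each condition, testing every main feature gave 1 higher with LPS, and eBayes with trend and robust gave 1 lower unstimulated.

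Leaving out 1 array or 1 clone gave 4 to 7 higher and 0 to 1 lower over all clones, 1 to 4 higher in low clones, 3 to 4 in high clones, 1 to 2 higher and 0 to 1 lower between unstimulated phenotypes, and 1 to 2 higher with LPS. Of the 130 other list genes, 15 to 18 were then higher and 12 to 17 lower over all clones, and 0 to 2 higher and 0 to 1 lower between unstimulated phenotypes. A log2 change of at least 1 left 5 higher and 2 lower of them. Between unstimulated phenotypes 2 of them were higher and 3 lower without genes near background, 2 higher with trend and robust, and 0 higher with only the arrays compared. The causes were not tested. Fpr1, Fpr2, Htr2a and both adenosine receptor genes lay below the upper background limit on all 12 arrays, which limits how far their folds can be read.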
